A study of Homo sapiens with 6 samples.

Results

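Expression of 8 genes of the prostate lineage and the androgen axis was examined in DU145 cells exposed to the compound OTI-611. The genes were FKBP5, SLC45A3, KLK3, NKX2-1, LMO3, FOXA1, FOXA2 and HOXB13, chosen by name with earlier results of these libraries in view. Their own differences between the groups are therefore given as a description. Where calls of these genes are given, they are read off the fit across all genes and are not used as support. All 8 have a row among the 32692 human genes of the deposited table, and none was absent. DU145 is an established human cell line derived from a brain metastasis of prostate carcinoma, and is known as a line that grows without androgen. Cells were kept for 24 h with 5 µM OTI-611 or with the solvent DMSO, and each group holds 3 libraries, numbered 1 to 3 as in the labels. OTI-611 is known here by its code name only. The series title names the chromatin remodeller CHD1L as the target.

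Values are RPKM, a read density scaled to the length of the gene and the depth of the library. DMSO 1 alone was deposited without decimals, and its entries were taken as RPKM cut to the integer below. A value below 1 is therefore listed as 0 in that library, and results are given with and without it. The steps between low values put the depth of DMSO 2 at 30.7 M reads, that of DMSO 3 at 32.3 M and those of treated libraries between 37.2 and 37.7 M, and none could be estimated for DMSO 1. Of the fixed markers, KRT8, KRT18, EPCAM and CDH1, which mark epithelial cells, summed to between 263 and 271 RPKM in the DMSO libraries and to between 214 and 228 in the OTI-611 libraries. The blood, stromal, smooth muscle and endothelial markers with a row each summed to under 1 RPKM in every library, and their part in the results was not tested.

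Steroid hormone receptors are transcription factors activated by their hormone and held ready for it by HSP90 chaperones. FOXA1 and its relative FOXA2 are forkhead pioneer factors, which open chromatin, and FOXA1 and the homeodomain factor HOXB13 shape the response to androgen in prostate epithelium. KLK3, which encodes prostate-specific antigen, SLC45A3, which encodes the membrane transporter prostein, and FKBP5, which encodes an HSP90 co-chaperone, are textbook androgen-induced genes, and FKBP5 is induced by glucocorticoids as well. NKX2-1 encodes TTF-1, the homeodomain factor that specifies lung, thyroid and part of the forebrain and is a diagnostic marker of lung adenocarcinoma. LMO3 encodes a LIM-only protein, which has no DNA-binding domain and bridges transcription factors through the adaptor LDB1, and it has been described as a target of NKX2-1 in lung adenocarcinoma.

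Upstream sequences are shown for LMO3 and NKX2-1, the members that differed most between the groups, and for KLK3, which was close to 0. They come from RefSeq on GRCh38.p14, which had 12 windows for 6 of the members, and each is the stretch of the 250 bases before a gene start that lies outside the exons of that gene in GENCODE v29. They are written 5′ to 3′ on the strand of the gene, with matches to the searched motifs in capitals. The LMO3 window lies at chr12:16608215-16608464 on the minus strand and is the furthest upstream of several RefSeq windows for this gene. The NKX2-1 stretches lie at chr14:36520287-36520482 and chr14:36519694-36519806 on the minus strand, before an upstream and a downstream start. The LMO3 window and both NKX2-1 stretches precede RefSeq starts that lie inside the span of their gene in GENCODE v29. They are therefore not upstream of the whole annotated gene. The KLK3 window lies at chr19:50854665-50854914 on the plus strand.
LMO3: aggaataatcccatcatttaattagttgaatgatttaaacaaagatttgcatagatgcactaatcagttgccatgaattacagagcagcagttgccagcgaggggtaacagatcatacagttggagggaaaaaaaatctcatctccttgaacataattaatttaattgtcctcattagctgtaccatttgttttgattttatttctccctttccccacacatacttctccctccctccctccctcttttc
NKX2-1, upstream start: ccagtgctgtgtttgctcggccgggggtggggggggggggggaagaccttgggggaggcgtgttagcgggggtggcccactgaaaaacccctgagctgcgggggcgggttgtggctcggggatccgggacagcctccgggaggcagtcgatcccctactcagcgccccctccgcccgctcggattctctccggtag
NKX2-1, downstream start: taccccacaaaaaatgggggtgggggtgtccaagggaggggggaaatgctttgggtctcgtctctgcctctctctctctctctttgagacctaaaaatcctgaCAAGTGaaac
KLK3: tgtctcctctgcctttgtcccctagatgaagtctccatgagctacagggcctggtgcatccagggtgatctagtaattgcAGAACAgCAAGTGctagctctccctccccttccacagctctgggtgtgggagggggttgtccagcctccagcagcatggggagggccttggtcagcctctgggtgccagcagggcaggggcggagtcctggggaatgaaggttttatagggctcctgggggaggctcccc

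Searched on both strands were CAAGTG, the core bound by NKX2 homeodomains and also a form of the E-box CANNTG. The other motifs were the forkhead core TGTTTAC, the receptor motif AGAACA, which is the half-site of the glucocorticoid receptor and its close relatives, and the HOXB13 motif CCAATAAA. CAAGTG occurred in 9.5% of 35116 RefSeq windows of 250 bases, TGTTTAC in 2.98%, AGAACA in 12.4% and CCAATAAA in 0.863%. The KLK3 window holds AGAACA starting 170 bases before the gene start, within the textbook androgen response element of this promoter, with CAAGTG overlapping the rest of that element. CAAGTG also starts 147 bases before the downstream NKX2-1 start, with TGTTTAC 130 bases before it inside an exon of the longer transcript. FOXA1 has CAAGTG on the opposite strand, 12 bases before its start in RefSeq, inside an exon of FOXA1 in GENCODE v29. No match was found in the 5 LMO3 windows, the 2 FKBP5 windows or the SLC45A3 window, which says only that these letters are not in them.

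LMO3 had the highest value of the 8 genes in DMSO cells and the largest difference. LMO3 (ENSG00000048540) lies on the minus strand of chromosome 12 from 16548373 to 16610594. It was listed at 36 in DMSO 1, 35.1 in DMSO 2 and 35.9 RPKM in DMSO 3, and at 11.7, 10.6 and 10.3 RPKM in the OTI-611 libraries. The groups did not overlap, and the libraries of each lay close together. The mean went from 35.7 ± 0.51 to 10.8 ± 0.75 RPKM (SD, n = 3 each), a difference of -1.63 ± 0.048 (SE) on the log2(value + 1) scale and of -1.63 ± 0.060 without DMSO 1. The mean of DMSO 2 and DMSO 3 was 3.27 times that of the OTI-611 libraries. Of the 11978 genes with a mean of at least 1 RPKM, 18 had a difference at or below that of LMO3, itself included. In bulk RNA, less RNA per cell and fewer cells that express a gene cannot be told apart.

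NKX2-1 (ENSG00000136352), on chromosome 14 from 36516392 to 36521149, was listed at 24 in DMSO 1, 23.8 in DMSO 2 and 25.3 RPKM in DMSO 3, and at 11.6, 11.9 and 12.5 RPKM with OTI-611. Every OTI-611 library was near 12 and every DMSO library near 24, with no overlap. The mean went from 24.4 ± 0.81 to 12.0 ± 0.44 RPKM (SD, n = 3 each), a difference of -0.97 ± 0.036 (SE) on the log2(value + 1) scale and of -0.98 ± 0.043 without DMSO 1. The antisense gene NKX2-1-AS1 covers 12.7% of the exon bases of NKX2-1, and whether the authors counted reads by strand is not given in the sources used here. NKX2-1-AS1 itself was listed at 0, 0.459 and 0.486 RPKM in the DMSO libraries and at 0.226, 0.332 and 0.0597 RPKM with OTI-611, far under the level of NKX2-1 per kilobase.

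FKBP5 (ENSG00000096060), on chromosome 6 from 35573585 to 35728583, was the most highly expressed of the 3 androgen-induced members. It was listed at 29 in DMSO 1, 28.6 in DMSO 2 and 27.5 RPKM in DMSO 3, and at 17.4, 16.5 and 17.2 RPKM with OTI-611. All 3 OTI-611 libraries lay below all 3 DMSO libraries. The mean went from 28.4 ± 0.80 to 17.0 ± 0.47 RPKM (SD, n = 3 each), a difference of -0.70 ± 0.029 (SE) on the log2(value + 1) scale and of -0.69 ± 0.033 without DMSO 1.

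FOXA1 (ENSG00000129514), on chromosome 14 from 37589984 to 37596059, was listed at 13 in DMSO 1, 14.99 in DMSO 2 and 13.9 RPKM in DMSO 3, and at 9.48, 9.52 and 9.77 RPKM with OTI-611. The groups did not overlap, although the DMSO libraries were spread more widely than the treated ones. The mean went from 13.97 ± 1.0 to 9.59 ± 0.16 RPKM (SD, n = 3 each), a difference of -0.50 ± 0.052 (SE) on the log2(value + 1) scale and of -0.54 ± 0.038 without DMSO 1.

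SLC45A3 (ENSG00000158715), on chromosome 1 from 205657851 to 205680459, was the 1 tested member with a positive difference. It was listed at 1 in DMSO 1, 1.45 in DMSO 2 and 1.55 RPKM in DMSO 3, and at 1.89, 1.82 and 1.95 RPKM with OTI-611. The treated libraries all lay above the controls, but the lowest control is the library with dropped decimals. The difference was 0.31 ± 0.12 (SE) on the log2(value + 1) scale with DMSO 1 and 0.21 ± 0.052 without it. Against DMSO 2 and DMSO 3 the OTI-611 mean was 1.26 times as high, and with every library cut to whole numbers no difference was left, since all 6 then read 1.

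FOXA2, KLK3 and HOXB13 were close to 0 in both groups and lay under the minimum mean of 1 RPKM set for testing. FOXA2 (ENSG00000125798; chromosome 20, 22581005 to 22585455) was listed at 0, 0.128 and 0.194 RPKM in the DMSO libraries and at 0.106, 0.0843 and 0.0834 RPKM with OTI-611. DMSO 2 and DMSO 3 lay above the treated libraries, and the values rest on an estimated 10.2 and 16.3 reads in these and 8.17 to 10.3 reads in the treated libraries, not corrected for depth. The difference was -0.02 ± 0.069 (SE) on the log2(value + 1) scale with DMSO 1 and -0.09 ± 0.032 without it, and was not tested. KLK3 (ENSG00000142515; chromosome 19, 50854915 to 50860764) was listed at 0, 0.0362 and 0.0456 RPKM in the DMSO libraries and at 0.0595, 0 and 0.0392 RPKM with OTI-611, or at most an estimated 10.3 reads. HOXB13 (ENSG00000159184; chromosome 17, 48724763 to 48729178) was listed at 0.0101 RPKM in DMSO 3 and 0.0088 in OTI-611 1, an estimated 1.13 and 1.14 reads, and at 0 in the other 4 libraries. The estimates use GENCODE v29 exon lengths, may differ from the authors' counts and are given without an error.

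**Figure D1:**
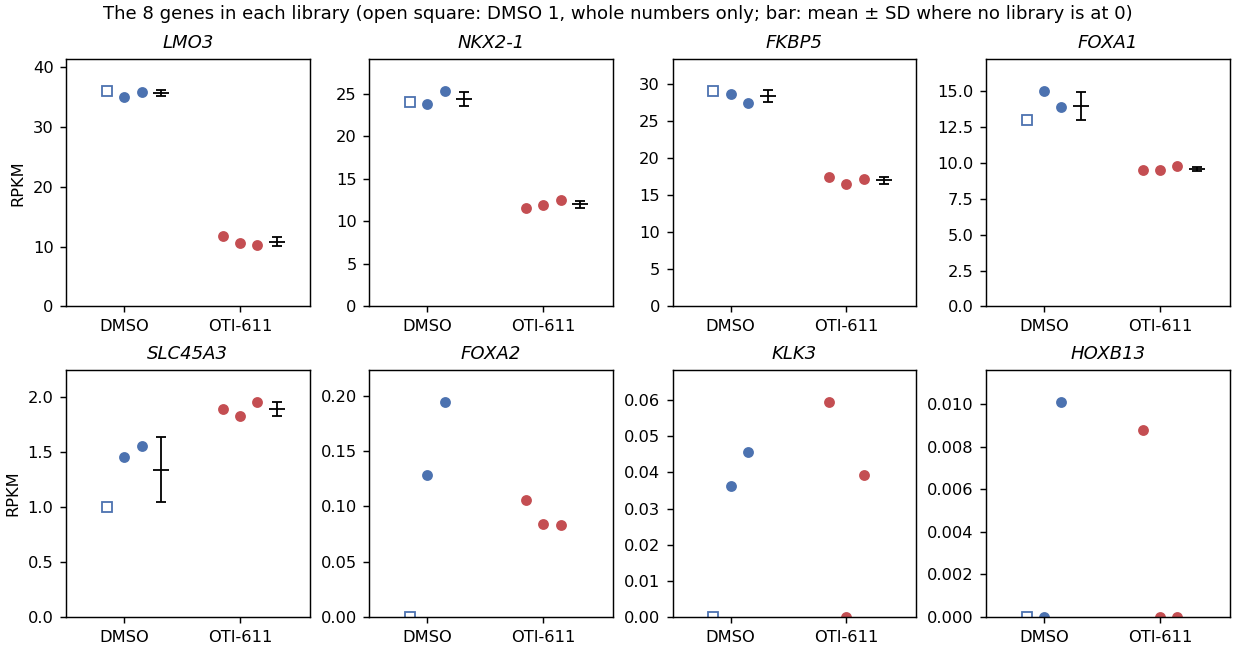
RPKM of each of the 8 genes (vertical axes, each from 0) in the 3 DMSO libraries (blue; the open square is DMSO 1) and the 3 OTI-611 libraries (red), with mean ± SD where no library is at 0. LMO3, NKX2-1, FKBP5 and FOXA1 are lower in every treated library, SLC45A3 ranges from 1 to 1.95 RPKM, and FOXA2, KLK3 and HOXB13 stay under 0.2 RPKM.

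In the fit across all 11978 tested genes, 4 of the 5 tested members were called lower, none was called higher and SLC45A3 was not called. Over all genes tested, 65.2% were called in either direction, 37.3% lower and 27.8% higher. Without DMSO 1 the same 4 were called lower and SLC45A3 was called higher, against 68.7% of genes called, 42.4% lower and 26.3% higher. In 70.2% of tested genes the groups did not overlap, 39.7% with OTI-611 lower and 30.5% with it higher, and among the 5 members OTI-611 was lower in 4 and higher in 1. LMO3, NKX2-1 and FKBP5 were lower by at least 0.5 on the log2 scale, as were 14.6% of genes, and LMO3 by at least 1, as were 2.1%. Since the members were chosen with this contrast known, the count is a description and nothing is read from it.

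**Figure D2:**
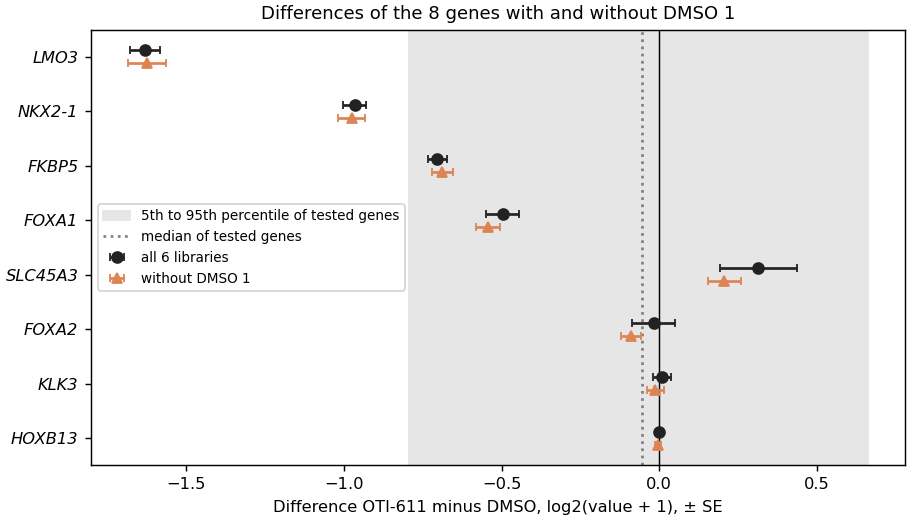
Difference between OTI-611 and DMSO on the log2(value + 1) scale (horizontal axis, ± SE) for the 8 genes with all 6 libraries (circles) and without DMSO 1 (triangles), with the 5th to 95th percentile of tested genes in grey. LMO3 (-1.63) and NKX2-1 (-0.97) lie outside the band from -0.79 to 0.66, and FKBP5, FOXA1 and SLC45A3 inside it.

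The order of the members changed between the groups. In DMSO cells the order was LMO3, FKBP5, NKX2-1 and FOXA1, and the libraries of neighbours in that order did not overlap. With OTI-611 it was FKBP5, NKX2-1, LMO3 and FOXA1, where the highest LMO3 library (11.7 RPKM) lay above the lowest NKX2-1 library (11.6 RPKM), so these 2 were not separated. The ratio of LMO3 to NKX2-1 within a library was 1.42 to 1.5 in the DMSO libraries and 0.825 to 1.01 in the OTI-611 libraries. The ratio of NKX2-1 to FOXA1 was 1.59 to 1.85 in the DMSO libraries and 1.22 to 1.28 in the OTI-611 libraries.

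Receptors and chaperones came next. NR3C1, the glucocorticoid receptor, was listed at 29, 28.1 and 27.7 RPKM in the DMSO libraries and at 31.0, 30.2 and 31.2 RPKM with OTI-611. It rose by 0.12 on the log2 scale (limma adjusted p = 0.0080), a small difference in the direction opposite to FKBP5. The estrogen-related receptor gene ESRRA fell (-0.25), and NR3C2, ESR1 and ESR2 lay under the minimum. Of 17 tested steroid receptor chaperone genes, 13 fell and 1 rose, which is 76.5% lower against 37.3% of all genes, with a median difference of -0.30 against -0.05 over all genes tested. HSP90AB1 (-0.44), its co-chaperone AHSA1 (-0.56) and the J-domain gene DNAJA1 (-0.73) fell, DNAJB1 (0.61) rose, and FKBP4, the close relative of FKBP5, fell from 40.1 ± 2.1 to 32.4 ± 1.0 RPKM (SD, n = 3 each). Of 7 other tested FKBP immunophilin genes, 4 fell (57.1%, against 37.3% of all genes), namely FKBP3 (-0.49), FKBP14 (-0.53), FKBP9 (-0.39) and FKBP11 (-0.43), and FKBP15 (0.31) rose.

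Other androgen-regulated genes went both ways. Of 40 on the list, 37 had a row, 21 were tested, 7 rose (33.3%, against 27.8% of all genes) and 6 fell (28.6%, against 37.3%), with a median of -0.03 against -0.05. Without DMSO 1 the counts were 6 higher and 7 lower. KLK2, the gene next in kind to KLK3, was at or under 0.0229 RPKM in every library, KLK4 was listed at 0 in all 6, and TMPRSS2 was listed above 0 in 1 library only, at 0.0131 RPKM in OTI-611 1. UAP1 (1.21), an enzyme of amino sugar synthesis, NDRG1 (1.02), the elongation factor gene ELL2 (0.95) and STEAP1 (0.57), a prostate surface antigen, rose. NNMT (-1.81), the transporter gene ABCC4 (-0.37), CAMKK2 (-0.36) and sorbitol dehydrogenase SORD (-0.39) fell. Among 17 tested glucocorticoid-induced genes, 6 were higher (35.3%) and 7 lower (41.2%), against 27.8% and 37.3% of all genes, with a median of 0.01 that turned to -0.05 without DMSO 1. ERRFI1 (1.39), DUSP1 (1.04), SGK1 (1.04) and TSC22D3 (0.89), which encodes the glucocorticoid-induced leucine zipper, rose, whereas CEBPD (-1.57), ANGPTL4 (-0.74) and MAOA (-0.55) fell.

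Genes that make, convert or take up androgens were either lower or not called. Of 9 tested, 7 fell and none rose, with a median of -0.56, against 37.3% lower and a median of -0.05 over all genes. Without DMSO 1, 8 fell, and after quantile normalization or rescaling to the median log ratio 1 of the 9 was called higher. AKR1C3, which makes testosterone from androstenedione, fell from 36.1 ± 2.1 to 13.3 ± 2.1 RPKM (SD, n = 3 each). AKR1C2 (-1.55) and AKR1C1 (-0.56), of the same reductase family and close to it in sequence, so that reads may be shared between them, fell, as did SRD5A1 (-0.72), a steroid 5-alpha-reductase, and SLCO2B1 (-1.22), a steroid sulfate transporter.

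Among cofactors and other lineage factors, 12 of 28 tested steroid receptor coregulators and pioneer factors rose (42.9%, against 27.8% of all genes) and 5 fell (17.9%, against 37.3%), with a median of 0.02 against -0.05. Without DMSO 1 the counts were 11 higher and 7 lower, with a median of -0.03, and after quantile normalization or rescaling to the median log ratio 3 were called lower. The corepressor gene TLE1 (1.10), the ETS factor gene ETV4 (1.02) and SOX9 (0.97) rose, and MEIS2 (-0.79), a homeodomain partner of HOX proteins, and NFIB (-0.47) fell. GATA2, which encodes a zinc finger pioneer factor, averaged 4.48 ± 0.42 RPKM in controls and 3.84 ± 0.096 in treated cells (SD, n = 3 each) and did not pass (limma adjusted p = 0.062). GATA2 passed in 4 of 16 alternatives, among them without DMSO 1 (limma adjusted p = 0.0058). FOXA3, the remaining FOXA gene, lay at or under 0.460 RPKM in every library. HOXB13 was near 0 although other genes of its cluster were expressed. Of 7 tested HOXB cluster genes, 3 rose and 3 fell (42.9% each way, against 27.8% and 37.3% of all genes), among them HOXB9 (0.37), which lies next to HOXB13 among the HOX genes of the cluster, at 12.4 ± 1.1 and 16.3 ± 1.0 RPKM (SD, n = 3 each), HOXB6 (-0.33), HOXB5 (-0.41; lost with all columns cut to whole numbers, limma adjusted p = 0.13) and the antisense gene HOXB-AS3 (-1.04). Without DMSO 1, 2 rose.

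The LIM adaptor gene LDB1 and the genes SSBP3 and SSBP4 fell. LDB1, the adaptor that LMO proteins bind, was listed at 24, 26.5 and 26.0 RPKM in the DMSO libraries and at 13.5, 13.6 and 13.2 RPKM with OTI-611. It fell by 0.87 on the log2 scale (limma adjusted p = 2.54e-07), and the groups did not overlap. SSBP3, which encodes a protein that stabilizes LDB1, was listed at 4, 4.69 and 4.08 RPKM and then at 1.23, 1.02 and 1.25 RPKM. It fell by 1.28 (limma adjusted p = 3.29e-06), and its relative SSBP4 fell by 0.70, while SSBP2 lay under the minimum. LMO4, the other LMO gene tested, stayed within the spread of its libraries, at 7.48 ± 0.44 and 7.38 ± 0.25 RPKM (SD, n = 3 each; log2 difference -0.02 ± 0.056 SE, limma adjusted p = 0.81), while LMO1 and LMO2 lay under the minimum. Over the whole list of LMO relatives and LIM-domain partners, 5 of 13 tested genes fell and 4 rose, with a median of -0.02, so the list as a whole was near the background of 37.3% lower and 27.8% higher. Without DMSO 1, 6 fell and 3 rose. The LIM-homeodomain gene LHX6 (-0.45) fell, a call lost with no filter on low values (limma adjusted p = 0.067), and RBBP8 (0.25) and TCF12 (0.23), a basic helix-loop-helix factor gene, rose.

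**Figure D3:**
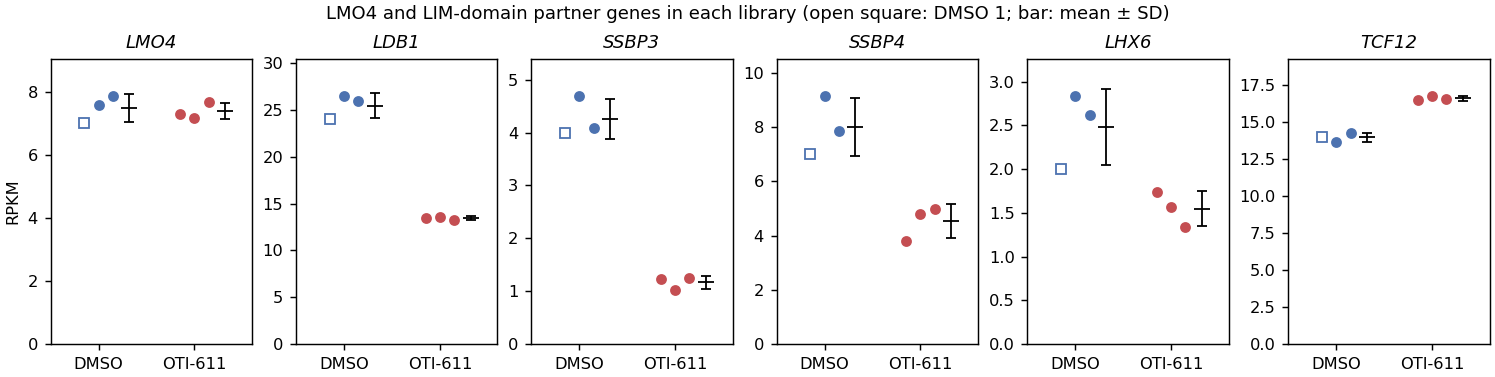
RPKM (vertical axes, each from 0) of LMO4 and of genes for LIM-domain partners in the 3 DMSO libraries (blue; the open square is DMSO 1) and the 3 OTI-611 libraries (red), with mean ± SD. LDB1, SSBP3, SSBP4 and LHX6 are lower in every treated library, TCF12 is higher, and LMO4 overlaps. The genes shown are a selection, and of all 13 tested genes of the list 5 were called lower and 4 higher.

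Genes that NKX2-1 is known for in lung and thyroid were mostly near 0. Of 34 on the list, 30 had a row and 20 lay under the minimum, among them the surfactant genes SFTPA2, SFTPB, SFTPC and SFTPD and the thyroglobulin gene TG. NAPSA was under it too, at 1, 1.06 and 1.40 RPKM in the DMSO libraries and 0.318, 0.163 and 0.258 with OTI-611. Its groups did not overlap, but it was not tested. The other genes under the minimum overlapped between the groups, with DMSO 1 listed at 0 in each. No treated library can lie below a 0, so for a lower value this overlap was fixed in advance and shows nothing. Without DMSO 1, some no longer overlapped, such as CEACAM6, at 0.126 and 0.143 RPKM in DMSO 2 and DMSO 3 and at most 0.0306 with OTI-611. Others, such as SFTPD, still overlapped, and none of these differences was tested. Of the 10 tested, 5 fell and 3 rose, with a median of -0.12, beside 37.3% lower, 27.8% higher and a median of -0.05 among all genes. These calls include SFTA3 and PAX9 (lower) and NKX2-8 (higher), which are neighbours of NKX2-1 on chromosome 14. The same values are given again below and are not a separate result. FOXE1, a thyroid forkhead factor gene, fell from 7.27 ± 0.27 to 4.32 ± 0.19 RPKM (SD, n = 3 each), ABCA3, a lipid transporter of surfactant, fell by 0.63, and AQP3 by 0.89. DUSP6 (1.16) and LAMP3 (0.96) rose. The thyroid factor gene HHEX, at 6.61 ± 0.68 and 6.83 ± 0.39 RPKM (SD, n = 3 each), and ROR1 (0.05), described as a target of NKX2-1, did not pass.

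SFTA3, which lies 2.56 kb from NKX2-1 on the same strand, fell by 1.19 on the log2 scale (limma adjusted p = 7.54e-06). It was listed at 5, 6.55 and 6.37 RPKM in the DMSO libraries and at 2.27, 1.98 and 1.89 RPKM with OTI-611, with no overlap. NKX2-1 and FOXA1 lie 1069 kb apart on chromosome 14, and the genes around and between them were examined after the values of these 2 were seen. Of 31 genes annotated from MBIP to TTC6 (36298558 to 38041442), 21 had a row and 9 were tested. Apart from NKX2-1 and FOXA1 themselves, SFTA3 and PAX9 fell, MBIP and NKX2-8 rose and 3 genes were not called, while 37.3% of all genes tested were called lower and 27.8% higher. PAX9 (-0.29; limma adjusted p = 0.012) fell, but its call was lost in 5 of 16 alternatives, among them without DMSO 2 (0.051) and without OTI-611 2 (0.054). MBIP (0.33) rose, as did NKX2-8 (0.36; limma adjusted p = 0.016), the homeobox gene 59.4 kb from NKX2-1, whose call was lost in 4 of 16, among them without OTI-611 2 (0.053) and without OTI-611 3 (0.062). SLC25A21, SLC25A21-AS1 and MIPOL1, which reach from PAX9 towards FOXA1, were not called. MIPOL1 passed in 4 of 16 alternatives, among them without DMSO 1 (limma adjusted p = 0.047).

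**Figure D4:**
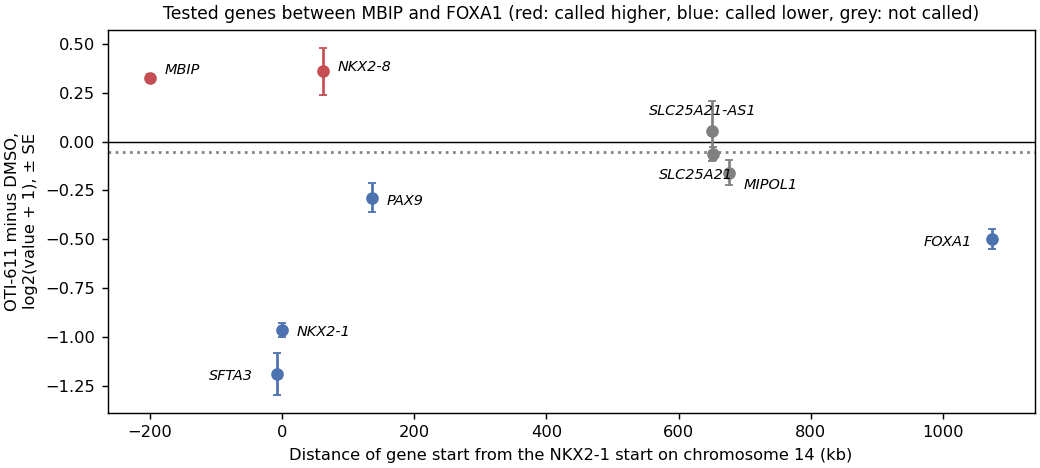
Difference between OTI-611 and DMSO on the log2(value + 1) scale (vertical axis, ± SE) for the 9 tested genes between MBIP and FOXA1, by distance of their starts from the NKX2-1 start in kb (horizontal axis). Points are coloured by call, and SFTA3 and NKX2-1 lie near -1, FOXA1 at -0.50, and MBIP and NKX2-8 above 0.

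Near the other members, MGST1, whose annotated span overlaps that of LMO3 without sharing exon bases, fell by 0.28 on the log2 scale, and DERA, 511 kb from LMO3, fell by 0.36. PLEKHA5, the tested gene on the other side of LMO3, rose by 0.33 (limma adjusted p = 0.036), a call lost in 7 of 16 alternatives, among them without DMSO 2 (0.062) and without OTI-611 1 (0.13), OTI-611 2 (0.095) or OTI-611 3 (0.084). Of the genes beside FKBP5, TEAD3 at 76.5 kb was not called (0.03). The antisense gene ENSG00000232909 at 5.28 kb fell by 0.74 (limma adjusted p = 0.0070), a call lost with no filter on low values (0.076). ELK4, 25.9 kb from SLC45A3 on chromosome 1, rose by 0.50 on the log2 scale, from 7.13 ± 0.13 to 10.47 ± 0.45 RPKM (SD, n = 3 each), and NUCKS1 on the other side fell by 0.12, a call that was lost after rescaling to the median log ratio (limma adjusted p = 0.28).

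The state of the epithelium was described by 3 more lists. Of 12 tested luminal markers 8 fell and 2 rose, with a median of -0.29, against 37.3% lower, 27.8% higher and a median of -0.05 over all genes. KRT8 (-0.50), CDH1 (-1.09), KRT7 (-0.32) and CD24 (-0.41) fell and KRT18 did not pass, and without DMSO 1 only 1 rose. Of 11 tested basal markers 5 fell and 5 rose (45.5% each way), with CAV1 (-0.78), GSTP1 (-0.71) and ITGB4 (-0.83) among the lower, and TP63 and KRT14, which define basal cells, were at or near 0. Of 30 neuroendocrine genes 19 had a row and 7 were tested. Among these REST (0.62), a repressor of neuronal genes, EZH2 (0.33) and ENO2 (0.27) were among the 4 that rose (57.1%) and RB1 (-0.20) and PEG10 (-0.16) fell, the latter a call lost after rescaling to the median log ratio (limma adjusted p = 0.096). The markers CHGB, NCAM1 and SYP lay under 1 RPKM in every library. Of 3 tested genes related to SLC45A3 or to glucose transport, SLC2A1 (0.54) and SLC45A1 (0.47) rose and SLC45A4 (-0.07) did not pass. The call for SLC45A1 was lost without OTI-611 1 (limma adjusted p = 0.071) and without OTI-611 3 (0.068).

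**Figure D5:**
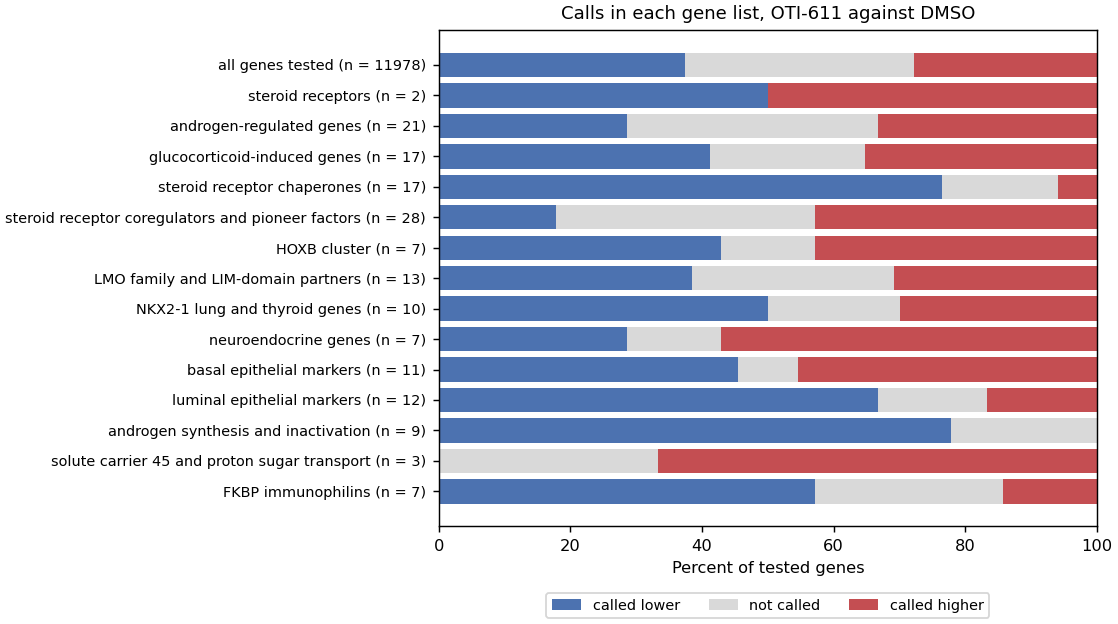
Percent of tested genes (horizontal axis) called lower (blue), not called (grey) and called higher (red) with OTI-611 in each gene list and over all 11978 genes tested. The chaperone list (76.5% lower) and the androgen synthesis list (77.8% lower) have the highest shares of lower calls, against 37.3% of all genes.

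The tested genes with profiles most like the members were found by the distance between log2(value + 1) profiles over the 6 libraries, each centred on its mean. The nearest to LMO3 were FAM111B (distance 0.109), IMPA2 (0.117) and STAT4 (0.131). STAT4 went from 4.88 ± 0.15 to 0.928 ± 0.039 RPKM (SD, n = 3 each). The nearest to NKX2-1 were ASRGL1 (0.107), BICDL1 (0.108) and MGST2 (0.11), and to FKBP5 SNX4 (0.0474), SRSF2 (0.0569) and SMAD3 (0.0658). DIPK1B (0.0329), OAT (0.0528) and RRP36 (0.0555) were nearest to FOXA1, and ZSCAN32 (0.0618), DNAJC16 (0.0705) and PUS10 (0.0756) to SLC45A3, all 3 with DMSO 1 as the lowest library.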

How the data were processed

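RNA was measured in 6 DU145 libraries, 3 per group, assigned by their labels. Per the labels' protocols, libraries were made with a TruePrep kit after Geo-seq amplification of miRNeasy-extracted RNA. Nothing in the labels tells whether the libraries of a group are separate cultures. The p-values therefore cover only the variation among these samples, possibly technical. Without giving roles, the submitters' processing notes list TopHat2 2.0.9, Cufflinks 2.1.1, CASAVA 1.7, HTSeq, FastQC and the mouse build mm10, whereas all 32692 IDs are human, so the build and annotation used are not established. The authors deposited 5 columns with decimals, whose unit is not named and was taken as RPKM from length-dependent steps between low values (67.9% to 69.1% of low values were whole reads within 0.05, with GENCODE v29 exon lengths). FPKM would look alike. The column DMSO 1, deposited by the authors as whole numbers, was treated as a score of the same quantity with decimals dropped. No columns were left unused, and no 2 libraries held the same values.

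Values were analysed as log2(value + 1) with limma 3.58.1 in R 4.3.3 (group as the only term, mean-variance trend, two-sided, Benjamini-Hochberg over the 11978 genes with a mean of at least 1, threshold 0.05). This scale understates the change of low genes. Differences and standard errors of the 8 members come from the same fit with no filter on low values. The fit was tested on simulated data, in which a far smaller share of genes changed than was called here. No support for the calls is drawn from that. The members and the 14 gene lists, of whose 309 entries 265 matched a row, were chosen with earlier results of these data known. Named were the members, up to 4 genes per list with the smallest p, the genes that the title of a list turns on (such as NR3C1, LMO4, LDB1, KLK2 and TMPRSS2), and the 3 nearest profiles per tested member. Some genes that this rule names are not reported here, and other genes were named after their values were seen. In all, 16 alternatives were tried, and positions and exon overlaps come from GENCODE v29 on GRCh38.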

Additional observations from a re-analysis of the deposited data

How the results depend on the processing

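The differences of LMO3, NKX2-1, FKBP5 and FOXA1 kept their direction under all 16 alternatives, with ranges of -1.71 to -1.59, -1.02 to -0.94, -0.73 to -0.68 and -0.54 to -0.44 on the log2 scale, and these 4 were called lower in each. SLC45A3 ranged from 0 to 0.49 and was called in 6 of the 16. A pseudocount of 0.1 moved SLC45A3 to 0.49, KLK3 to 0.054, NKX2-1 to -1.02 and LMO3 to -1.71. Cutting all columns to whole numbers moved SLC45A3 to 0 and NKX2-1 to -1.02. Adding 0.5 to DMSO 1 moved KLK3 to -0.19, FOXA2 to -0.21 and HOXB13 to -0.20, and quantile normalization moved HOXB13 to -0.013, all 4 values of genes at or near 0. The cause of these moves was not tested beyond the settings themselves. Over all genes, 3332 were called higher and 4473 lower; leaving out 1 library gave 3000 to 3312 higher and 4005 to 5081 lower, with most lower calls without DMSO 1, and quantile normalization gave 4085 and 4115. With a median log ratio of 0 imposed, the counts were 3986 and 3978, and this setting moved the chaperone list from 1 to 2 higher calls and the neuroendocrine list from 2 to 1 lower calls. The list of 3 tested transporter genes had 1 called gene in place of 2 with no filter on low values, and between 1 and 2 when 1 library was left out. The labels number the libraries 1 to 3 in both groups, but deviations of same-numbered libraries correlated at 0.019, 0.000411 and -0.0581, so the numbers were not taken as pairs. A fit with the replicate number as a block gave 3327 higher and 4429 lower, and the same 4 members. Of 191 list, neighbour and profile genes, 50 changed their call in some alternative and none that was called changed direction. The values of FOXA2, KLK3 and HOXB13 rest on at most 16.3 estimated reads in a library.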
